A study of Mus musculus with 3 samples.

Results

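MicroRNAs are short RNAs cut from hairpins in longer transcripts, first by Drosha in the nucleus and then by Dicer in the cytoplasm, and loaded into Argonaute proteins, where the seed at the 5′ end pairs with target messenger RNAs and lowers their output. Their primary transcripts are made by RNA polymerase II from ordinary promoters, so histone H3 trimethylated at lysine 4 (H3K4me3, a mark of promoters) and histone H3 acetylated at lysine 27 (H3K27ac, a mark of active promoters and enhancers) can be read at a microRNA locus as at a coding gene. The 5 loci described here are Mir142, Mir150, Mir17 with its polycistronic cluster (Mir17, Mir18, Mir19a, Mir20a, Mir19b-1 and Mir92-1), Mir181a-1 with Mir181b-1, and Mir155. The windows were selected by position, with peaks of the same lists in view, and a member is any called peak that overlaps a window. Together the windows spanned 315 kb and held 14 of the 29468 H3K27ac peaks and 12 of the 18142 H3K4me3 peaks.

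The cells were a cultured mouse model of acute lymphoblastic leukaemia of the pre-B type, driven by Bcr-Abl, a fusion kinase that causes this disease, with no stimulation or treatment. The groups were 1 library for H3K27ac, 1 for H3K4me3 and 1 with control immunoglobulin (IgG), all from the same leukaemia cells. They describe a transformed cell model and not normal precursor B cells. The IgG library was not analysed here. Since each mark has a single library, no spread between replicates and no test can be given, and sequencing depth is unknown. Because no mm9 annotation was at hand, peaks (mm9 positions throughout) were not placed on genes or hairpins, and the B-cell identity of the cells was not checked against marker genes.

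In blood cells these microRNAs have well-known roles. miR-142 is made in nearly all haematopoietic cells, miR-150 accumulates in mature lymphocytes, and the miR-17 cluster is a Myc target that supports survival of precursor B cells through Bcl2l11. miR-181a tunes antigen-receptor signalling in developing lymphocytes, and miR-155, carried by the host transcript Bic (Mir155hg), rises on lymphocyte activation and is oncogenic in B cells.

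The mature sequences are shown first, because the seed sets which messages each mature arm can act on. Capitals mark the seed, bases 2 to 8 from the 5′ end, and the sequences are RefSeq's for GRCm38.p6, where all 11 microRNA genes of the 5 loci matched and each lies on the plus strand. From 20 mature arms, 12 are given. For Mir150 and Mir19a the source held the 3p arm only, so the other arm of each was neither shown nor compared.
miR-142a-5p: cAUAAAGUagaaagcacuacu
miR-142a-3p: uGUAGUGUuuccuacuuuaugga
miR-150-3p: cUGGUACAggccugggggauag
miR-17-5p: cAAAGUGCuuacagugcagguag
miR-20a-5p: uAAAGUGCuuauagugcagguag
miR-18a-5p: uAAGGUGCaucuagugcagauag
miR-19a-3p: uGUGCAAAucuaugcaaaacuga
miR-19b-3p: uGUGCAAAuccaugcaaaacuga
miR-92a-3p: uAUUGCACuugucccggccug
miR-181a-5p: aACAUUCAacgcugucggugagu
miR-181b-5p: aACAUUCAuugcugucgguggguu
miR-155-5p: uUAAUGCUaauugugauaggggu

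These 12 RNAs, 21 to 24 bases long, carried 9 different seeds. No seed was shared between loci, but seeds were shared within the Mir17 cluster and within the Mir181a-1 pair. miR-17-5p and miR-20a-5p were the same at 21 of 23 positions, counted from 1 at the 5′ end, and differed by C1U and C12U, both outside the seed. miR-18a-5p differed from miR-17-5p at 6 positions, of which A4G lies inside the seed. miR-19a-3p and miR-19b-3p differed only by U11C, and miR-181a-5p and miR-181b-5p, over the first 23 bases, by A9U, C10U and A21G. The seeds of miR-142a-5p, miR-142a-3p, miR-150-3p and miR-155-5p occurred in no other mature RNA of the 1679 names in the table. Since those names lack some arms, a match to an arm not listed would be missed. By contrast, the seed of miR-17-5p occurred in 6 other mature RNAs, among them miR-106a-5p, miR-106b-5p and miR-93-5p, and that of miR-92a-3p in 5 others, among them miR-25-3p.

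Some of these RNAs come from a second gene as well. The same mature miR-19b-3p and miR-92a-3p are encoded by Mir19b-2 and Mir92-2 on the X chromosome, and the same miR-181a-5p and miR-181b-5p by Mir181a-2 and Mir181b-2 on chromosome 2. Peaks at the windows therefore describe 1 of the 2 genes for each of those 4 RNAs, and the other genes were not analysed here.

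All 5 windows held at least 1 place where the peak of each mark scored 3100, a value that many high-scoring peaks of either list share. Scores were deposited by the authors without a definition and are compared here only within a list. Among H3K27ac members 6 of 14 scored at or above 3100, against 24.1% of the whole list. Among H3K4me3 members 8 of 12 did, against 50.3% of the list. The remaining H3K27ac members scored 73.82 to 2909.78 and the remaining H3K4me3 members 53.42 to 1328.14. Because the windows were selected with peaks in view, these shares describe the members and support nothing further.

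**Figure D1:**
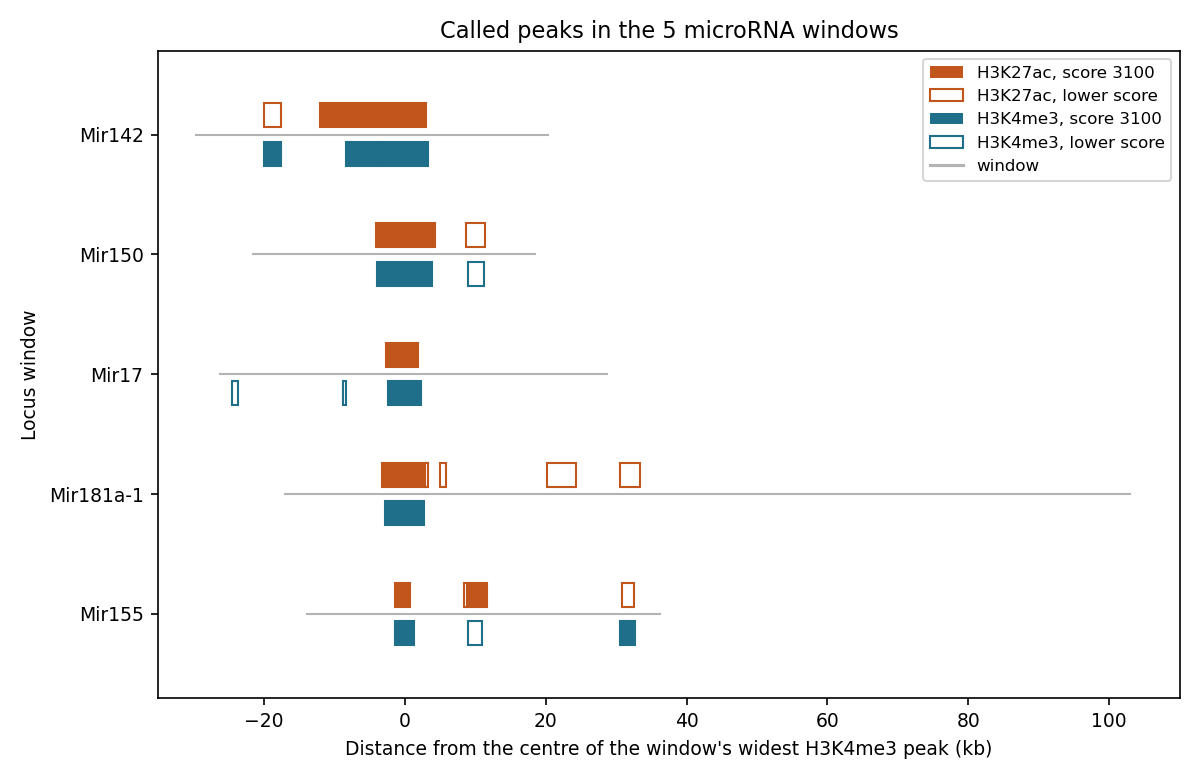
Called peaks in each window, with the distance in kb from the centre of the window's widest H3K4me3 peak on the x axis and H3K27ac drawn above H3K4me3. Filled boxes are peaks with a score of 3100 and open boxes are lower scores; the 2 widest H3K4me3 peaks at Mir142 lie 103 bp apart and look joined at this scale, and H3K27ac boxes without H3K4me3 extend to one side at Mir181a-1.

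The Mir142 window (chromosome 11, 87540000 to 87590000) had the greatest length of both marks among the 5. Its main H3K27ac peak measured 15.1 kb (chromosome 11, 87557564 to 87572626), scored 3100 and was the 77th widest of 29468, wider than 99.7% of the list. Under it lay 2 H3K4me3 peaks, of 5009 bp (87561273 to 87566281) and 6518 bp (87566385 to 87572902), both scoring 3100. Of the 15409 H3K27ac peaks in the list that met any H3K4me3, 3.82% met 2 or more, and this was the 1 member that did so, of 9 that met any. The 2 H3K4me3 peaks were separated by 103 bp, and joined they formed a domain of 11.6 kb, the 9th widest of 17471 H3K4me3 domains in the cells.

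The acetylation at Mir142 was not centred on the H3K4me3 domain. H3K27ac began before the domain and ended close to its far edge. Over the whole window, 3867 bp carried H3K27ac without H3K4me3 and 310 bp carried H3K4me3 without H3K27ac. A second place with both marks lay to the left, with an H3K27ac peak of 2429 bp scoring 2909.78 and an H3K4me3 peak of 2408 bp scoring 3100 (87549723 to 87552130). The centres of this pair were 44.5 bp apart, and the shared stretch made up 96.4% of their union. Of all 13911 places in the lists where 1 peak of each mark met no other, 97.5% shared less.

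In RefSeq's gene order Mir142 lies between Supt4a, a transcription elongation factor gene, and Tspoap1, and Mir142b overlaps it on the opposite strand. ChIP-seq carries no strand, and without mm9 positions the share of these marks that belongs to Mir142 and the share that belongs to its neighbours cannot be told apart. Beyond the member peaks of Mir142, the next H3K27ac peaks to the left and right were 49.2 kb and 93.8 kb away. The next H3K4me3 peaks were 142 kb and 93.4 kb away. Such gaps were not particular to Mir142, since at Mir155 the next H3K27ac peaks were 79.8 kb and 97.5 kb away.

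The Mir150 window (chromosome 7, 52360000 to 52400000) had the widest single H3K4me3 member. That peak measured 7736 bp (chromosome 7, 52377667 to 52385402), scored 3100 and was the 50th widest of 18142. It lay wholly inside an H3K27ac peak of 8372 bp (52377409 to 52385780), also at 3100 and wider than 98.4% of its list. The H3K27ac peak reached 258 bp further on the left and 378 bp further on the right, so the edges of the marks nearly coincided.

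The second Mir150 pair was weaker. The H3K27ac peak measured 2799 bp and scored 1629.89, and the H3K4me3 peak inside it measured 2231 bp (52390551 to 52392781) and scored 1328.14. Every H3K4me3 base of the window carried H3K27ac, and 89.2% of the H3K27ac length carried H3K4me3. In RefSeq's order Fcgrt, the neonatal Fc receptor gene, lies to the left of Mir150. Whether the 7736 bp peak belongs to Mir150 or to a neighbour was not tested.

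In the Mir17 window (chromosome 14, 115415000 to 115470000) a single place carried both marks. The H3K27ac peak measured 4589 bp (chromosome 14, 115438596 to 115443184) and the H3K4me3 peak 4661 bp (115438953 to 115443613), and both scored 3100. H3K27ac was shifted to the left by 393 bp between centres, the largest offset of the 8 member pairs, and the shared stretch was 84.3% of the union. To the right, the next H3K27ac peak of any score lay 2534 kb away, and to the left the next was 90.2 kb away.

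Mir17 was also the 1 window with H3K4me3 that lacked H3K27ac. These were a peak of 846 bp with a score of 193.24 (115416746 to 115417591), 21.0 kb from the H3K27ac peak, and a peak of 476 bp with a score of 53.42 (115432534 to 115433009), 5.59 kb from it. In the whole H3K4me3 list, peaks without H3K27ac had a median width of 763 bp and a median score of 137, so the first peak lay above both medians and the second below both. The score of 53.42 was higher than that of 1.27% of the list. For the host transcript Mir17hg, RefSeq's annotated start lies inside the cluster: the 300-base promoter window of the table contained 4 mature sequences, those of both arms of Mir20a and of Mir19b-1. That window is therefore not upstream of the cluster, and no promoter is shown.

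In the Mir181a-1 window (chromosome 1, 139780000 to 139900000), unlike the other 4, most of the acetylated length lay away from H3K4me3. This window was also the longest, 120 kb against 40 to 55 kb for the other 4. What part window length plays in the contrast was not tested. One place carried both marks, with an H3K27ac peak of 6131 bp (chromosome 1, 139793755 to 139799885) around an H3K4me3 peak of 5587 bp (139794251 to 139799837), both at 3100. The H3K4me3 peak was wider than 98.7% of its list and was the only one in the 120 kb window. The other 4 H3K27ac peaks had no H3K4me3. A pair of them were small fragments beside the main peak, 511 bp scoring 77.16 and 730 bp scoring 94.1, at gaps of 65 bp and 2270 bp from H3K4me3.

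The other two lay well clear of it. An H3K27ac peak of 4133 bp with a score of 2484.47 began 17.4 kb from the H3K4me3 peak, and 1 of 2788 bp with a score of 554.45 began 27.8 kb from it. Across the whole list, H3K27ac peaks without H3K4me3 had a median width of 1252 bp and a median score of 188, below both of these peaks. As a result H3K27ac covered 14.3 kb of the window and H3K4me3 5.59 kb, a ratio of 2.56, and 39.1% of the H3K27ac length carried H3K4me3. Over the whole lists the ratio was 1.84 and the share 45.7%, so most acetylated length lay away from H3K4me3 there too. RefSeq's order places the long noncoding RNA gene Gm4258 immediately to the left of the hairpins and Gm34353 and then Ptprc, which encodes the leukocyte antigen CD45, to the right. Whether the acetylated stretch belongs to Mir181a-1 or to a neighbour was not tested.

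**Figure D2:**
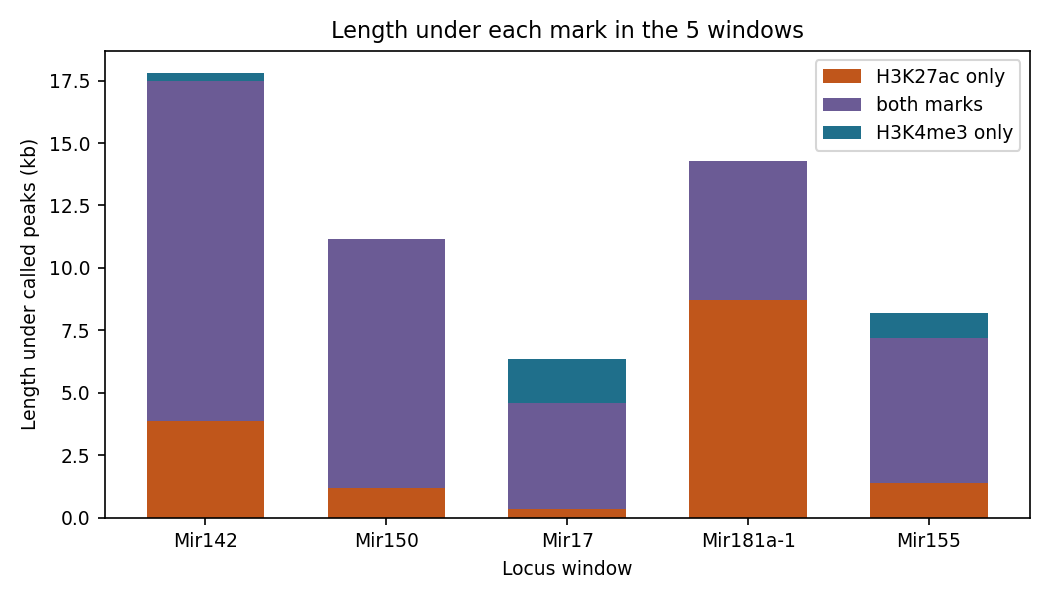
Length in kb under called peaks in each window, divided into H3K27ac without H3K4me3, both marks, and H3K4me3 without H3K27ac. Shared length is the largest part at every locus except Mir181a-1, where H3K27ac alone covered 8.71 kb and both marks 5.59 kb.

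The Mir155 window (chromosome 16, 84690000 to 84740000) had 3 separate places with both marks. From left to right, the H3K27ac peaks measured 2169 bp (chromosome 16, 84702426 to 84704594), 2772 bp (84712726 to 84715497) and 1716 bp, with scores of 3100, 3100 and 2667.28. The H3K4me3 peaks measured 2742 bp (84702442 to 84705183), 1935 bp (84712844 to 84714778) and 2118 bp (84734430 to 84736547), with scores of 3100, 774.79 and 3100. These H3K4me3 peaks were wider than 78.8, 54.1 and 60.6% of the list, whereas the widest H3K4me3 peaks of the other windows exceeded between 96.9 and 99.7% of it.

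At the middle place of Mir155, the H3K4me3 score of 774.79 was higher than that of 37.6% of the H3K4me3 list. Its H3K27ac peak, whose score was higher than that of 75.9% of the H3K27ac list, reached 118 bp further on the left and 719 bp further on the right. The shared stretch was 69.8% of the union, the lowest of the 8 member pairs. An H3K27ac fragment of 536 bp with a score of 73.82 ended 21 bp before this peak and had no H3K4me3. In RefSeq's order the host gene Mir155hg contains Mir155 and is followed by Mrpl39, a mitochondrial ribosomal protein gene, and which place is the promoter of which gene was not tested.

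Over the 5 windows, 9 of 14 H3K27ac members overlapped H3K4me3, or 64.3% (exact 95% binomial interval 35.1 to 87.2%), against 52.3% of the whole list. For H3K4me3, 10 of 12 members overlapped H3K27ac, or 83.3% (51.6 to 97.9%), against 86.1% of the whole list. Both shares lay within counting error of the lists' own, and the intervals treat peaks as independent although several share a locus. Without the Mir181a-1 window the H3K27ac share was 88.9%, and without the Mir17 window the H3K4me3 share was 100%, since each window held most or all of the members with 1 mark.

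By length, the 2 marks coincided at these loci to a greater degree than over the lists. The windows held 54.7 kb of H3K27ac and 42.3 kb of H3K4me3, of which 39.2 kb was shared. Shared length was 71.6% of H3K27ac and 92.8% of H3K4me3 in the windows, against 45.7 and 84.3% in the whole lists. By locus the share of the H3K27ac length ranged between 39.1% at Mir181a-1 and 92.2% at Mir17, and the share of the H3K4me3 length between 70.7% at Mir17 and 100% at Mir181a-1 and Mir150. No test of this difference was made, because the windows were placed on marked positions.

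At 8 places 1 peak of each mark met no other. The shared stretch had a median of 82.7% of the union there (69.8 to 96.4%), against a median of 76.9% (quartiles 57.5 and 86.6%) over all 13911 such places. Centres were a median of 152.5 bp apart, against 142 bp over all. H3K27ac was the wider mark in 5 of the 8, against 52.4% of all such places, and in 4 of the 8 H3K4me3 was wholly inside the acetylated stretch, against 36.9% of all. The member pairs are themselves among the 13911 places, and no test of these differences was made.

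The median width was 2780 bp for H3K27ac members (511 to 15063 bp), against 1782 bp for the list. An interval for the members' median from the binomial order statistics, at 95% or more, ran between 730 and 6131 bp and so held the list's value. For H3K4me3 members the median was 2575 bp (476 to 7736 bp, interval 1935 to 5587 bp). The list's median of 1807 bp lay just outside that interval. Both intervals treat peaks as independent although several share a locus. The windows were also selected with peaks in view, so neither interval tests a difference from the list. The list's median width was exceeded by 10 of 14 H3K27ac members and by 10 of 12 H3K4me3 members. In the whole lists 14730 of 29468 H3K27ac peaks and 9070 of 18142 H3K4me3 peaks did so, as a median sets. Among peaks at or above 3100, median widths were 5360 bp for 6 H3K27ac members and 3495 bp in the list. For H3K4me3 they were 4835 bp for 8 members and 2539 bp in the list.

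**Figure D3:**
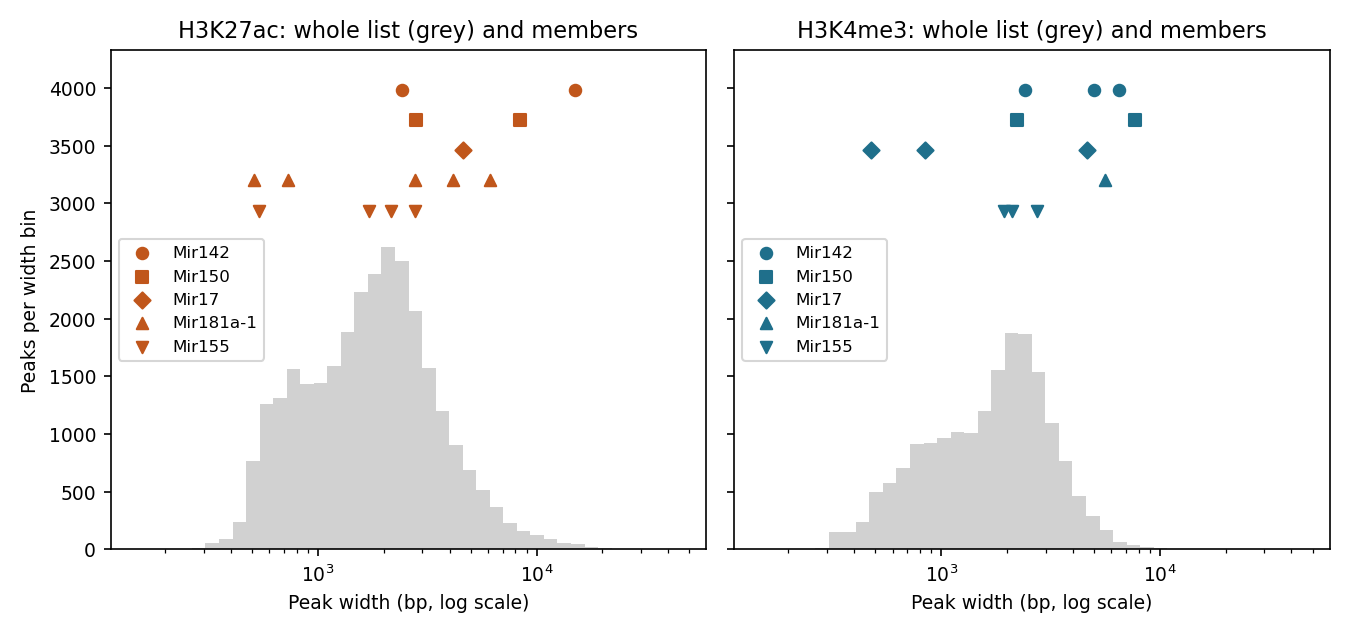
Peak width in bp on a log axis, with the number of peaks per width bin of the whole list in grey and each member peak as a symbol, 1 row of symbols per locus (height of the symbols has no scale). The H3K4me3 members of Mir142, Mir150, Mir17 and Mir181a-1 include peaks in the right tail of the grey distribution, whereas the 3 of Mir155 lie between 1935 and 2742 bp.

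Broad H3K4me3, here the widest domains after joining peaks within 1000 bp, was found at 4 of the 5 loci. Domains of at least 4435 bp made up 5.01% of 17471, and 4 of the 11 domains in the windows reached that width. They measured 11.6 kb at Mir142, 7.74 kb at Mir150 (83rd widest), 5.59 kb at Mir181a-1 (339th) and 4.66 kb at Mir17 (724th). The widest at Mir155 measured 2.74 kb and was 4054th.

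Long acetylated regions were sought by merging H3K27ac peaks at gaps up to 12.5 kb and ordering the merged regions by the length under peaks. Regions above 11.2 kb, the bend of the ordered curve, were called long and made up 6.40% of 16134. Of 7 stitched regions in the windows, the 1 at Mir142 was long, with 17.5 kb in 2 peaks and rank 451. The region at Mir150 had 11171 bp in 2 peaks, rank 1036, just under the limit of 11186 bp. It was long with a stitching distance of 5000 bp and with scores of at least 100, where the limit was 8.95 and 10.0 kb.

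At Mir181a-1 the acetylation fell into 2 regions, because a gap of 14.4 kb exceeded the stitching distance. The 1 with H3K4me3 held 7.37 kb (rank 2027) and the 1 without held 6.92 kb (rank 2195). Neither reached the limit. The regions at Mir155, with 5.48 kb in 3 peaks (rank 3105) and 1.72 kb in 1 peak (rank 11144), and at Mir17, with 4.59 kb (rank 3908), were shorter. The order of the loci depended on the ranking: by summed score the best ranks were 1032 at Mir155, 1305 at Mir142, 1840 at Mir150 and 3191 at Mir181a-1, so that Mir155 stood above Mir142. With a stitching distance of 5000 bp the best rank was 5830 at Mir155 and 664 at Mir150. By length under peaks, of the 5 loci, Mir142 was the 1 with both a broad H3K4me3 domain and a long acetylated region at these limits. Mir150 also had a broad domain, and its acetylated region was long with a stitching distance of 5000 bp or with scores of at least 100.

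**Figure D4:**
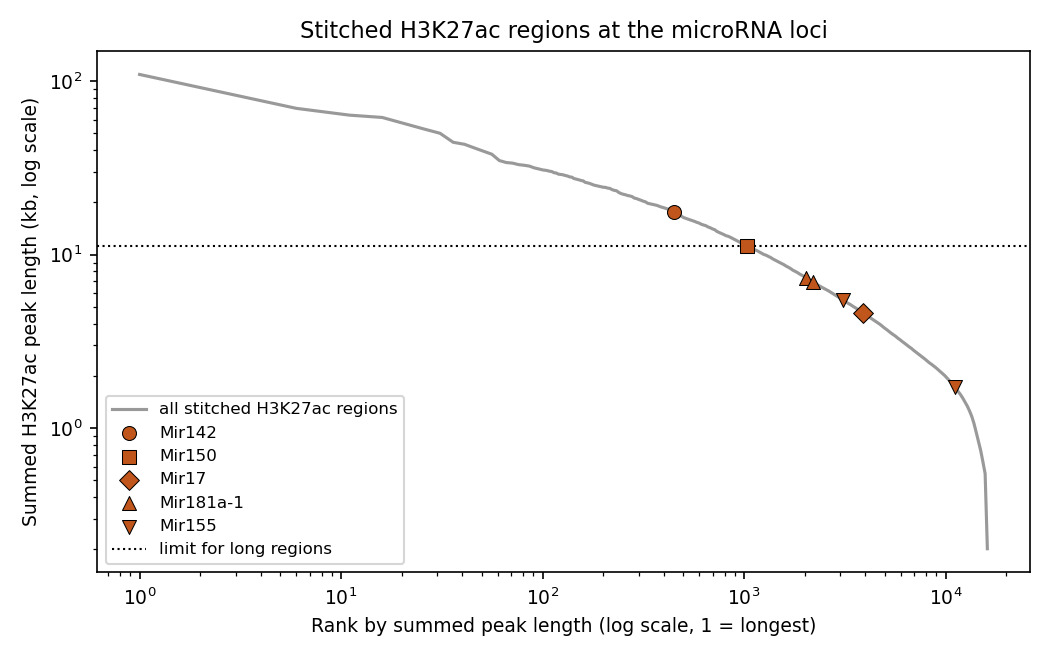
Summed H3K27ac peak length of each stitched region in kb against its rank, both on log axes, with all 16134 regions as the grey line, the regions at the microRNA loci as symbols and the limit for long regions dotted. Mir142 lies above the limit at 17.5 kb, Mir150 just under it at 11.2 kb, and the other loci below it.

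The windows covered far more of their length with peaks than their chromosomes did, as their selection sets. H3K27ac covered 35.0% of the Mir142 window and 27.9% of the Mir150 window, 14.4% at Mir155, 11.9% at Mir181a-1 and 8.34% at Mir17. H3K4me3 covered 27.9% at Mir142, 24.9% at Mir150, 13.6% at Mir155, 10.9% at Mir17 and 4.66% at Mir181a-1. Between its first and last peak, the chromosome of each window was covered to between 2.20 and 4.20% by H3K27ac and between 1.07 and 2.49% by H3K4me3. Mir17 was the 1 window with more H3K4me3 than H3K27ac length, with 4589 bp of H3K27ac and 5983 bp of H3K4me3.

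The bounds of the windows did not cut through any peak. The first peaks outside lay 8.57 to 2507 kb beyond the bounds for H3K27ac and 8.56 to 133 kb for H3K4me3. The closest were both on the right of Mir150, an H3K27ac peak of 2171 bp and an H3K4me3 peak of 2058 bp that each scored 3100. Nearest to a bound on the inside was the weak H3K4me3 peak of 846 bp at Mir17, 1.75 kb from it.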

How the data were processed

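ChIP-seq peaks of cultured mouse leukaemia cells were analysed from 1 deposited list per mark. Per the submitters' processing notes, MACS was used and the build is mm9; of the MACS version, aligner, read filters and depth, none is stated in the sources used. The deposited score per peak is the authors' value, 1 library per list with nothing pooled, and is comparable only within a list. Deposited starts were read as counted from 0 and are printed counted from 1. Groups came from sample titles.

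The 5 windows were read from the definition of the loci, and the loci, gene names and measures were chosen with earlier results of these data known. By position are named every H3K4me3 member, the widest H3K27ac member of each window and those at or above 3100. Peaks overlapped when they shared at least 1 bp. Shares carry exact 95% binomial (Clopper-Pearson) intervals, which cover counting error only. RefSeq's tables follow GRCm38.p6 and gave names, gene order, strand, overlap between genes and microRNA sequences, but no position is printed from them; planned counts of microRNA-processing genes and cell markers needed an mm9 annotation and were not made. Overlap and stitching code was checked on simulated peaks. Alternatives covered score, window bounds, overlap, joining, list length and leaving out each window. Software was SciPy 1.17.1, pandas 2.3.3, NumPy 2.4.6 and matplotlib 3.10.9 under Python 3.11.15.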

Additional observations from a re-analysis of the deposited data

How the results depend on the processing

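Of 42 alternative values for the pooled counts, shares and median widths, 40 moved by less than the reported value's interval or, for counts, by less than 1.5 times. The other 2 came from leaving out a window: the H3K27ac share with H3K4me3 was 64.3% and became 88.9% without Mir181a-1, and the H3K4me3 share with H3K27ac was 83.3% and became 100% without Mir17, since those windows held 4 of the 5 H3K27ac members and both H3K4me3 members with 1 mark. The pooled intervals are wide, so staying inside them says little. Per locus, 48 of 55 alternative values stayed within 1.5 times. The H3K27ac count at Mir181a-1 was 5, or 3 when only scores from 100 upward were kept. With a stitching distance of 5000 bp, the rank of the longest region was 5830 at Mir155 and 664 at Mir150. Ranked by summed score, ranks were 1305 at Mir142, 1032 at Mir155, 3191 at Mir181a-1 and 1840 at Mir150. A summed score adds 1 value per peak whatever its width, and these regions held 3 peaks at Mir155 and 2 at Mir142. The cause of the changed order was not tested. No replicate exists to leave out. No paired analysis was possible because each mark has 1 library. Depth is unknown, so weak peaks missing from a list may lie below its detection.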
